A study of Nematostella vectensis with 30 samples.

Results

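Each miRNA precursor is cut into a short duplex of which 1 strand, the guide, stays in an Argonaute protein (AGO) and the other, the star, is mostly lost. The star strands of the miRNAs that the study newly annotated in the sea anemone Nematostella vectensis are described here. They were taken as all new arms that the count table of AGO immunoprecipitates (IPs) marks as star. These were 85 of its 255 arms, and each was set against the guide of its own precursor, the 86 new guides being the other new arms (1 new star had no line in this table and was not analysed here). The tables give these miRNAs a shared prefix and a running number, and they are written here as new-miR with that number.

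The IPs were made from lysates of whole animals at 3 stages, early planula (EP), primary polyp (PP) and adult male (AM), with rabbit antibodies to NveAGO1, with rabbit antibodies to NveAGO2, or with non-specific rabbit IgG as background, in 2 biological replicates each (18 libraries). The animals of the IPs carried no knockdown. In a further 12 libraries, total small RNA was counted in planulae 3 days after zygotes were injected with a morpholino (MO) against NveAGO1 (AGO1 KD) or NveAGO2 (AGO2 KD), or with control MO (Control1 and Control2), with 3 replicates each. A MO lowers a protein without removing its gene, and 1 injected batch of animals makes a replicate.

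In animals an miRNA duplex is made by Dicer, and the AGO that takes it up keeps the strand whose 5' end is held less tightly and discards the other. A kept star is a small RNA with a seed of its own, the stretch of bases 2 to 8 from the 5' end with which AGO finds targets. Cnidarian miRNAs often pair with their targets along nearly their whole length. No function of the newly annotated miRNAs is known from the sources used here. The study accepted a new miRNA where the guide outnumbered the star in these same libraries and was above IgG, and classed some as having no star. A low star share is therefore partly set by how the members were found, and the results below are about differences in it between AGOs, stages and precursors.

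The strands on which the results turn are given 5' to 3' with the seed in capitals. In the first 3 precursors the star share was higher in NveAGO1.

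new-miR-59 star: uCCUACAGauuuuuugacaga
new-miR-59 guide: uGUCAAAAaaucuguaggg
new-miR-11 star: aGGAAUCCcgaaucucag
new-miR-11 guide: cCAGAGAUucgggauuccugu
new-miR-24 star: uGAGUGUUaguccuucgucgaag
new-miR-24 guide: uAACAAAGaacuaacgcucgaa

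In the next 4 the star share was higher in NveAGO2.

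new-miR-9 star: cCAGAAAGcucugcgcaggacg
new-miR-9 guide: cUCCUGUGcagugcucucugugu
new-miR-28 star: cUUUUAUGucauuauguccaugu
new-miR-28 guide: uUGGACAUaacgacauaagagu
new-miR-8 star: aUGAUGAUugcaggccauuucgg
new-miR-8 guide: aAGGUGACcucgaucuucaugau
new-miR-15 star: uAACAGAAcaauagaucguga
new-miR-15 guide: uCACGAUCuauuguucuguuagu

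A further 4 strands are shown because their reads can be counted on more than 1 arm.

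new-miR-47-1 star: uGCGUGCAgccggaaauagu
new-miR-46 guide: uGCGUGCAgccggaaauaguu
new-miR-68 star: aAAAGCAAaucgggauuugcc
new-miR-67 guide: aAAAGGAAauggggauuugcc

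The new-miR-47-1 star is the new-miR-46 guide without its last base, with 0 mismatches over 20 bases. Its counts were not those of that guide, with 94 and 323 of the star and 651 and 2789 of the guide in NveAGO1 of adult males, and 113 and 63 of the star and 60 and 46 of the guide in NveAGO1 of early planulae. A read of these 20 bases fits both arms, and how such reads were counted is not given in the sources used here. The new-miR-68 star differs from the new-miR-67 guide at 2 of 21 bases. The new-miR-68 star had 1334 and 1549 counts in NveAGO1 of adult males, where the new-miR-67 guide had 1391 and 1608. It had 68 and 139 counts in NveAGO2 of primary polyps, where that guide had 59 and 108. Such near-equal counts cannot be assigned to 1 precursor. The new-miR-67 star likewise differs from the new-miR-68 guide at 2 of 21 bases, but it had a single count in the AGO libraries. These 3 stars are called near copies below, and totals are given with and without them. Star shares without near copies leave out both strands of their precursors. The new-miR-48-1 star is 22 and the new-miR-48-2 star 21 bases long, with the same bases up to there. They had the same counts in every library and were tested once, but both are entered in the sums. Guides were not screened for copies among themselves. The new-miR-44-1 guide is the first 20 bases of the new-miR-44-2 guide, and the new-miR-35 guide is bases 2 to 22 of it.

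The AGO libraries held 3280430 to 13170153 genome-mapped reads and the IgG libraries 456537 to 5318311, and levels are counts per 1000000 of these reads (CPM). The smallest was the first IgG library of primary polyps. At PP, NveAGO1 replicate 2 held 6194385 miRNA counts but 6153804 genome-mapped reads, so its counts exceed its reads. Of the 85 stars, 18 had 0 counts in all 18 libraries, which allows up to 0.0343 CPM over the AGO libraries together, since a count of 0 allows 3. The other 67 were counted in at least 1 AGO library, 15 of them with fewer than 10 counts in all, 29 with 10 to 99 and 23 with at least 100. As the lysates are of whole animals, fewer cells that make a strand and less of it per cell cannot be told apart. Together the stars made 19966 counts beside 394120 of their guides in the AGO libraries, or 4.82%. Intervals on shares are 95% Wilson intervals and cover counting error alone.

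How much star strand each AGO held was asked first. In early planulae the star share of the new precursors was 3.55% (interval 3.26 to 3.87) and 3.96% (3.60 to 4.36) in the NveAGO1 libraries, against 5.62% (5.28 to 5.99) and 4.32% (4.07 to 4.59) in the NveAGO2 libraries. In primary polyps it was 1.72% (1.52 to 1.95) and 1.66% (1.50 to 1.83) in NveAGO1, against 5.62% (5.39 to 5.86) and 6.41% (6.25 to 6.57) in NveAGO2. In adult males it was 3.24% (3.12 to 3.36) and 4.29% (4.14 to 4.44) in NveAGO1, against 6.64% (6.30 to 7.0) and 10.7% (10.3 to 11.2) in NveAGO2. NveAGO2 held the higher share at each stage, with no overlap between libraries. These shares count guides that can share reads. The new-miR-44-2, new-miR-44-1 and new-miR-35 guides held 8480, 3766 and 1633 of 37293 guide counts in NveAGO1 of primary polyps. In NveAGO2 they held 9617, 6680 and 3164 of 117822, a smaller part, as in early planulae. In adult males the order turned, with 2050, 762 and 674 of 143502 against 3123, 1802 and 1822 of 33689. Their effect on the shares was not tested. With 2 libraries a side the smallest p that an exact two-sided permutation test allows is 0.333, so none was run.

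Much of the adult male value came from 1 near copy. The new-miR-68 star made 2883 of the 5549 star counts (52.0%) in NveAGO1 and 908 of the 3162 (28.7%) in NveAGO2. Without the near copies the share in adult males was 1.51% and 1.65% in NveAGO1, against 4.29% and 5.43% in NveAGO2. In primary polyps it was 1.39% and 1.40% in NveAGO1, against 4.04% and 5.33% in NveAGO2. In early planulae it was 3.20% and 4.12% in NveAGO1, against 4.70% and 3.69% in NveAGO2. There the libraries of the AGOs overlapped. The new-miR-47-1 guide, left out with its star, held 2092 of 13630 and 1964 of 9795 guide counts in NveAGO1 of early planulae. In NveAGO2 it held 112 of 15427 and 77 of 22962. Leaving it out raises the NveAGO1 shares, so the overlap does not come from the stars alone. The IgG libraries gave 7.04% and 2.46% at EP, 6.17% and 3.73% at PP and 5.33% and 8.33% at AM, on 20 to 53 star counts each. The NveAGO2 and IgG libraries overlapped in star share at every stage, and the NveAGO1 libraries of primary polyps and of adult males lay below both IgG libraries. The summed level of the stars was 39.4 to 220 CPM in the AGO libraries against 6.98 and 7.71 in IgG of early planulae, and 298 to 552 against 12.9 and 14 CPM in adult males. In primary polyps it was 74.4 and 63.9 CPM in NveAGO1, 428 and 431 in NveAGO2 and 96.4 and 10.5 in IgG, so that the first IgG library lay above NveAGO1.

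**Figure D1:**
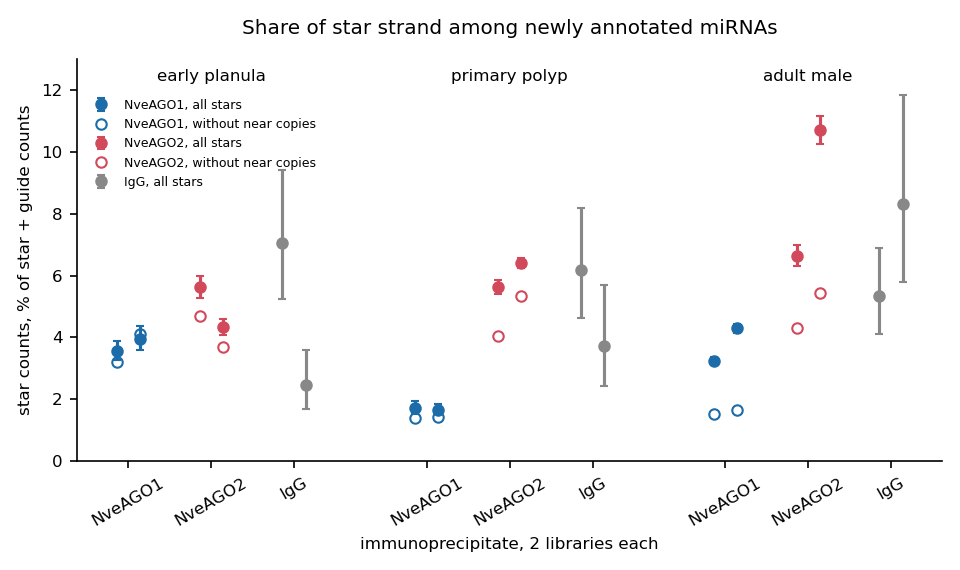
Star counts as a percentage of star plus guide counts of the new precursors (vertical axis) in each library of NveAGO1, NveAGO2 and IgG at the 3 stages, with 95% Wilson intervals. Open circles leave out both strands of the near-copy precursors. In primary polyps the NveAGO1 libraries lie at 1.72% and 1.66% and the NveAGO2 libraries at 5.62% and 6.41%.

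The summed share hid wide differences between precursors. Among precursors with at least 20 star plus guide counts in an AGO, the median star share was 0% in NveAGO1 (56 precursors) and 1.14% in NveAGO2 (60 precursors) in early planulae. In primary polyps it was 0.464% in NveAGO1 (57) and 3.37% in NveAGO2 (75), and in adult males 0.775% in NveAGO1 (61) and 1.37% in NveAGO2 (61). Of the 31 known precursors with both strands in the table, those past the same 20 counts had medians at EP, PP and AM of 0.623%, 0.938% and 2.18% in NveAGO1 (29, 29 and 30 precursors) and 2.33%, 1.30% and 1.49% in NveAGO2 (30, 31 and 31). The 5 highest stars made 65.1% to 87.6% of the star counts of an AGO and stage. The rank correlation (Spearman) of star and guide totals over the 67 counted stars was 0.21, a description over arms of the same libraries.

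Apart from the near copies, the highest stars were those of new-miR-55, new-miR-8, new-miR-49, new-miR-6, new-miR-15 and new-miR-85. The new-miR-55 star was counted in both AGOs at every stage. It had 28 and 34 counts in NveAGO1 against 211 and 376 in NveAGO2 of early planulae, 37 and 83 against 322 and 990 at PP, and 62 and 50 against 223 and 147 at AM. In CPM this was 12.4 ± 1.56 in NveAGO1, 70.7 ± 6.33 in NveAGO2 and 8.76 ± 12.4 in IgG of primary polyps (SD, n = 2 each). The new-miR-8 star had its highest counts in adult males. It had 425 and 353 counts in NveAGO1, 9 and 11 in NveAGO2 and 2 and 1 in IgG there, and 0 to 13 in every library of the other stages.

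The new-miR-49 star was most abundant in primary polyps, at 12.1 ± 10.9 CPM in NveAGO1, 55.9 ± 31.8 in NveAGO2 and 5.17 ± 5.08 in IgG. In adult males it had 11 and 0 counts in NveAGO1 and 26 and 2 in NveAGO2. The new-miR-6 star was highest in adult males, at 44.4 ± 28.2 CPM in NveAGO1, 14 ± 12.1 in NveAGO2 and 1.22 ± 1.72 in IgG. The new-miR-15 star had 1 and 7 counts in NveAGO1 of primary polyps, against 73 and 851 in NveAGO2, and its replicates differed widely (39.8 ± 35.1 CPM in NveAGO2). The first IgG library of primary polyps held 8 of its counts, and the IgG level there was 8.76 ± 12.4 CPM. The new-miR-85 star was at 0.0487 ± 0.0689, 1.21 ± 1.28 and 12 ± 9.83 CPM in NveAGO1 at EP, PP and AM, and at 3.35 ± 0.968, 14.6 ± 4.06 and 29.9 ± 8.07 in NveAGO2.

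**Figure D2:**
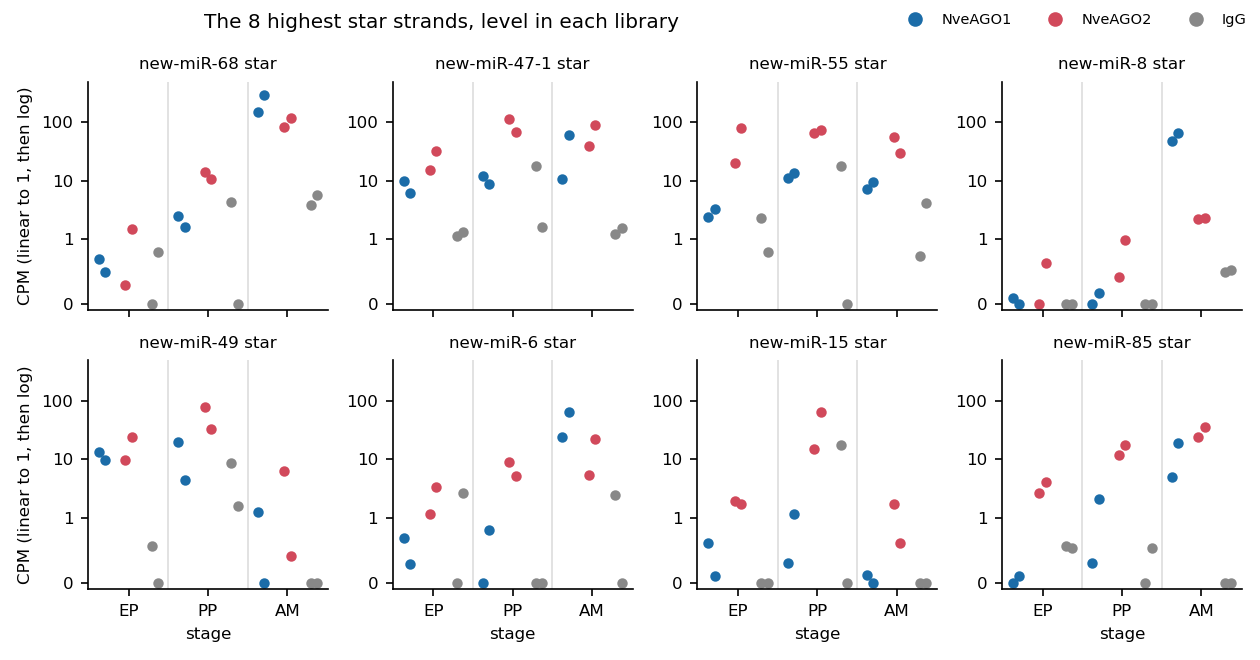
Level of the 8 highest stars (CPM, on an axis linear to 1 and logarithmic above) in each library of NveAGO1, NveAGO2 and IgG at early planula (EP), primary polyp (PP) and adult male (AM). The new-miR-8 star reaches 57.4 CPM on average in NveAGO1 of adult males and 2.24 in NveAGO2; new-miR-68 and new-miR-47-1 are near copies.

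Whether these star counts exceeded the background was tested against IgG, with edgeR across all arms that passed a filter on low counts (at least 10 counts in at least 2 libraries). It left 196 arms, 32 of them new stars. The other new stars were too low to test, apart from the duplicate new-miR-48-2. A star that passed through 1 group had to be high there, so counts among the 32 describe the tested stars and not all 85. In NveAGO1, 4 new stars were higher than in IgG at EP (of all arms 28.6% were called), 1 at PP (21.9%) and 14 at AM (51.5%). In NveAGO2, 17 were higher at EP (57.7%), 17 at PP (59.2%) and 23 at AM (76.5%). The new-miR-59 star was the single one called above IgG by NveAGO1 in primary polyps, with 11 and 50 counts against 0 and 0 in IgG. It was also called in early planulae, with 40 and 57 counts against 2 and 0, beside new-miR-11, new-miR-30 and new-miR-49. The new-miR-62 star, with 0 and 0 counts in NveAGO1 of primary polyps against 1 and 2 in IgG, was called lower. The new-miR-30 star had 41 and 15 counts in NveAGO1 of early planulae against 0 and 0 in IgG. In NveAGO2 the new-miR-55 star was higher than in IgG by 4.98 ± 1.28 (log2, SE; adjusted p = 0.00106) at EP, 3.34 ± 1.26 (adjusted p = 0.0265) at PP and 4.23 ± 1.26 (adjusted p = 0.00334) at AM.

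These calls rest on the scale of the libraries and on single IgG libraries. When libraries were scaled to their summed miRNA counts, 0 new stars were called above IgG in each of the 6 comparisons. The median of all arms in them shifted to between -1.38 and 0.96 (log2). Below IgG, 2, 7 and 3 were called in NveAGO1 at EP, PP and AM, and 1, 0 and 0 in NveAGO2. That scale takes out the general excess of miRNA counts over IgG. The first NveAGO1 library of adult males held 2361840 of them beside 8729294 genome-mapped reads, the first IgG library 22936 beside 4103341. It therefore cannot decide whether a star exceeds the background. In early planulae the 4 calls of NveAGO1 became 2 without the first IgG library and 1 without the second, and the 17 of NveAGO2 became 11 without its second library and 10 without IgG replicate 2. At PP the 17 of NveAGO2 became 2 without its first library, 4 without its second and 0 without the second IgG library. The 1 of NveAGO1 became 0 without its second library or IgG replicate 2, and 2 without IgG replicate 1. For adult males the 14 of NveAGO1 became 8 or 9 without 1 of the IgG libraries, and the 23 of NveAGO2 became 11 or 12 without 1 of these and 15 without its first library.

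The level of the stars was then compared between the AGOs. At the planula stage 7 of the 32 new stars were lower in NveAGO1 than in NveAGO2 (of all arms 37.2% were lower) and 0 were higher (10.7%). In the higher direction 2 had an unadjusted p under 0.05, and DESeq2 called 0. In primary polyps 21 were lower (48.5%) and 1 was higher (15.8%), and in adult males 6 were lower (30.1%) and 2 were higher (12.2%). The median difference of the 32 new stars was -1.98, -3.19 and -1.02 (log2, NveAGO1 over NveAGO2) at the EP, PP and AM stages, beside -1.96, -2.39 and -1.22 for all arms tested. Most arms of the table were therefore lower per genome-mapped read in the NveAGO1 IPs, and the medians of the new stars lay near those of all arms. With TMM scaling, which moved the median of all arms to -0.24, -0.62 and -0.60, the split was 4 higher and 6 lower at EP, 5 and 5 at PP and 4 and 6 at AM. On the scale of summed miRNA counts, calls split into 4 higher with 6 lower at EP, 1 with 24 at PP and 1 with 14 at AM.

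Among single stars, new-miR-26, new-miR-57 and new-miR-85 were lower in NveAGO1 of early planulae under every alternative that could be fitted. The new-miR-26 star had 5 and 1 counts in NveAGO1, against 39 and 38 in NveAGO2 (-4.33 ± 1.06, adjusted p = 0.00166). The new-miR-57 star had 1 and 1 counts in NveAGO1, against 36 and 21 in NveAGO2 (adjusted p = 0.00105). The new-miR-85 star had 0 and 1 counts in NveAGO1, against 28 and 19 in NveAGO2 (adjusted p = 0.0013). The new-miR-83, new-miR-62 and new-miR-55 stars were also called, but not without the first NveAGO1 library, where their adjusted p was 0.0523, 0.0523 and 0.068, and 3 new stars in all were called without it. The new-miR-55 star was lost as well without the second NveAGO1 (0.0505) or NveAGO2 (0.0926) library. The groups of none of these 6 stars overlapped.

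In primary polyps the new-miR-15, new-miR-26, new-miR-57 and new-miR-62 stars were lower in NveAGO1 under every alternative that could be fitted. The new-miR-26 star had 1 and 0 counts in NveAGO1, against 59 and 92 in NveAGO2 (adjusted p = 0.000261). The new-miR-62 star had 0 and 0 counts in NveAGO1, against 15 and 108 in NveAGO2 (adjusted p = 0.000261). The new-miR-15 star differed by -5.64 ± 1.29 (adjusted p = 0.000382) and the new-miR-57 star, with 0 and 4 counts against 52 and 130, by -4.64 ± 1.07 (adjusted p = 0.000425). The new-miR-87 star had 0 and 0 counts in NveAGO1, against 18 and 65 in NveAGO2 (adjusted p = 0.000261), and DESeq2 gave an adjusted p of 0.165. The new-miR-83 star differed by -3.46 ± 1.01 (adjusted p = 0.00381), which was lost without the first NveAGO1 library (adjusted p = 0.0586) and with TMM scaling (0.0809). The star that was higher in NveAGO1 was new-miR-29, on 1 and 4 counts against 0 and 0 (adjusted p = 0.016); it was lost with DESeq2 (0.133) and without 1 library in 3 of 4 cases (up to 0.157). Leaving out any library of the stage left 10 or 11 calls of the 22.

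In adult males the new-miR-8 star was higher in NveAGO1 by 4.67 ± 1.08 (adjusted p = 0.00114) and the new-miR-19 star lower, with 10 and 1 counts against 82 and 49 (-4.36 ± 1.05, adjusted p = 0.00139), under every alternative. The new-miR-76 star had 2 and 1 counts in NveAGO1, against 24 and 21 in NveAGO2 (adjusted p = 0.00126; 0.177 with DESeq2). The new-miR-14, new-miR-83 and new-miR-57 stars were lower as well, with 2 and 0, 6 and 1, and 0 and 0 counts in NveAGO1 against 23 and 8, 24 and 40, and 4 and 3 in NveAGO2. Each of these 3 lost its call without 1 library: new-miR-14 without the first NveAGO2 library (adjusted p = 0.0539), new-miR-83 without the second NveAGO1 library (0.0759), and new-miR-57 without either NveAGO1 library or the first of NveAGO2 (0.0719 to 0.118). The new-miR-103-1 star, higher with 76 and 19 counts against 4 and 5 (2.59 ± 0.96, adjusted p = 0.0254), was lost without either NveAGO2 library (0.126 and 0.11), with the replicate block (0.0638), with DESeq2 (0.412) and on the scale of summed miRNA counts (0.149). The new-miR-11 star, with 0 and 1 counts against 10 and 0, had overlapping groups (adjusted p = 0.0351). Its direction turned without the first NveAGO2 library, on 1 count in NveAGO1 against 0 in NveAGO2. Leaving out that library gave 3 calls in place of 8 at this stage, and leaving out the second NveAGO1 library gave 5.

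A comparison that does not depend on the scale of a library is that of star with guide within the library. The star:guide ratio was tested for the 82 miRNAs with at least 10 star and 10 guide counts over the 18 libraries, 51 of them new. In early planulae the ratio was higher in NveAGO1 for 4 new miRNAs (of all tested 13.4%) and lower for 7 (20.7%). In primary polyps it was higher for 6 (18.3%) and lower for 11 (28.0%), and in adult males higher for 5 (18.3%) and lower for 9 (20.7%). The median difference of the 51 was 0.10, -0.41 and -0.37 (log2) at the 3 stages, beside 0.03, -0.34 and -0.02 for all 82. In either direction 11, 17 and 14 of the 51 new miRNAs were called at EP, PP and AM, beside 28, 38 and 32 of all 82.

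The star share of new-miR-59 was higher in NveAGO1 at every stage. In early planulae its star and guide had 40 and 57 beside 103 and 122 counts in NveAGO1, against 22 and 18 beside 1332 and 1072 in NveAGO2, a ratio higher in NveAGO1 by 4.67 ± 0.83 (adjusted p = 2.44e-07). In primary polyps they had 11 and 50 beside 40 and 69 in NveAGO1, against 15 and 89 beside 430 and 1873 in NveAGO2 (3.53 ± 0.86, adjusted p = 0.000145). In adult males they had 10 and 9 beside 110 and 58 in NveAGO1, against 4 and 7 beside 674 and 567 in NveAGO2 (3.71 ± 0.995, adjusted p = 0.000851). These 3 calls held under every alternative. The star was thus spread over both AGOs (60.3%, 53.8% and 53.9% of its CPM in NveAGO1), whereas its guide was mainly in NveAGO2 (5.53%, 9.21% and 7.67% in NveAGO1).

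For new-miR-11 the strand that dominated depended on the AGO. In primary polyps the star had 8 and 19 counts and the guide 2 and 2 in NveAGO1, against 8 and 20 star and 138 and 476 guide counts in NveAGO2. The ratio was higher in NveAGO1 by 7.01 ± 1.05 (adjusted p = 3.62e-10) and stayed called under every alternative. In early planulae the star had 7 and 10 and the guide 2 and 3 counts in NveAGO1, against 7 and 4 beside 29 and 58 in NveAGO2 (4.61 ± 1.13, adjusted p = 0.000256; 0.0579 with DESeq2). In adult males the precursor was nearly absent from NveAGO1, with 1 star and 2 guide counts. The new-miR-11 star is 18 bases long, the shortest of the 85.

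The new-miR-24 guide was at 0 or 1 counts in all NveAGO1 libraries. Its star had 2 and 8 counts in NveAGO1 of primary polyps, against 7 and 54 beside 49 and 295 of the guide in NveAGO2 (adjusted p = 0.000155). In adult males it had 6 and 4 star counts with no guide count in NveAGO1, against 5 and 6 beside 17 and 16 in NveAGO2 (adjusted p = 0.000763). Both calls held under every alternative, on few counts. The new-miR-24 and new-miR-19 stars match each other at all but 3 of 20 bases, and whether they share reads was not tested.

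Among the other precursors with a ratio higher in NveAGO1 were new-miR-85, new-miR-88, new-miR-29, new-miR-54 and new-miR-19. In adult males new-miR-85 had 44 and 101 star and 73 and 52 guide counts in NveAGO1, against 98 and 174 star and 1412 and 775 guide counts in NveAGO2 (3.12 ± 0.82, adjusted p = 0.000676; 0.063 without the first NveAGO2 library). In primary polyps its difference of 2.69 ± 1.03 (adjusted p = 0.0204) was lost without the second library of NveAGO1 (0.891) or of NveAGO2 (0.257) and with DESeq2 (0.127). The ratio of new-miR-88 was called at every stage, with differences of 3.06 ± 1.18 and 3.33 ± 0.99 in early planulae and primary polyps. In adult males its star and guide had 13 and 4 beside 14 and 13 counts in NveAGO1, against 0 and 2 beside 123 and 26 in NveAGO2 (adjusted p = 0.000144). Its calls were lost without any 1 library in early planulae (adjusted p = 0.0559 to 0.181), without the second NveAGO1 library (0.248) or with DESeq2 (0.106) in primary polyps, and without the first NveAGO2 library in adult males (0.0931). The ratio of new-miR-54 in adult males (3.07 ± 1.11, adjusted p = 0.0164) was lost without the second NveAGO1 library (0.139) or the first NveAGO2 library (0.334) and with DESeq2 (0.0852). That of new-miR-29 in primary polyps rests on 5 star counts and 1 guide count in NveAGO1 and 9 guide counts in NveAGO2 (adjusted p = 0.00265; 0.0589 without the first NveAGO2 library). For new-miR-19 in early planulae the star had 2 and 4 counts beside 11 and 12 of the guide in NveAGO1, against 0 and 0 beside 66 and 60 in NveAGO2 (adjusted p = 0.00262).

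In the opposite direction, the new-miR-9 guide stood with NveAGO1 at every stage. Its star stood with NveAGO2 in early planulae and primary polyps and was in both AGOs in adult males. In primary polyps the star had 0 and 0 counts beside 11 and 23 of the guide in NveAGO1, against 5 and 25 beside 1 and 5 in NveAGO2 (adjusted p = 2.71e-07). In early planulae it had 0 and 0 beside 41 and 14 in NveAGO1, against 5 and 7 beside 5 and 2 in NveAGO2 (adjusted p = 1.37e-05). Both calls held under every alternative. In adult males it had 1 and 4 beside 161 and 346 in NveAGO1, against 3 and 2 beside 1 and 12 in NveAGO2 (-5.47 ± 1.44, adjusted p = 0.000746; 0.102 without the first NveAGO2 library).

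The new-miR-28 star had 0 and 1 counts beside 491 and 849 of the guide in NveAGO1 of primary polyps, against 6 and 46 beside 130 and 219 in NveAGO2 (adjusted p = 1.81e-07). The new-miR-8 star had 0 and 1 beside 22 and 71 in NveAGO1 of primary polyps, against 2 and 13 with no guide count in NveAGO2 (adjusted p = 7.99e-09). Both held under every alternative. The new-miR-15 star had 1 and 7 beside 17 and 538 in NveAGO1, against 73 and 851 beside 122 and 1401 in NveAGO2 (-5.17 ± 1.01, adjusted p = 1.77e-06; 0.0664 without the second NveAGO1 library). The new-miR-6 star had 0 and 5 beside 47 and 55 in NveAGO1, against 44 and 68 beside 77 and 121 in NveAGO2.

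The new-miR-57 and new-miR-62 guides were shared by the AGOs in early planulae while their stars were not. The new-miR-57 star had 1 and 1 counts beside 411 and 288 of the guide in NveAGO1, against 36 and 21 beside 443 and 298 in NveAGO2 (adjusted p = 0.000337). The new-miR-62 star had 0 and 0 beside 164 and 152 in NveAGO1, against 7 and 8 beside 175 and 139 in NveAGO2 (adjusted p = 0.00585). The new-miR-58 star had 1 and 2 beside 374 and 371 in NveAGO1 of early planulae, against 6 and 1 beside 10 and 4 in NveAGO2 (adjusted p = 1.37e-05; 0.172 without the first NveAGO2 library). In primary polyps new-miR-58 was called on 2 and 4 star counts (adjusted p = 0.00122; 0.0543 without the first NveAGO2 library). The near copy new-miR-47-1 had 113 and 63 star beside 2092 and 1964 guide counts in NveAGO1 of early planulae, against 161 and 154 beside 112 and 77 in NveAGO2 (-5.34 ± 0.81, adjusted p = 9.18e-10).

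The new-miR-101-1 precursor had its star in NveAGO2 alone and most of its guide counts in NveAGO1, at very low counts. All 15 star counts lay in NveAGO2, so it passed the filter through that AGO only, which partly sets its ratio calls. In adult males it had 0 and 0 star beside 45 and 24 guide counts in NveAGO1, against 3 and 2 star beside 0 and 2 guide counts in NveAGO2 (adjusted p = 3.54e-06; 0.434 with DESeq2). In early planulae (adjusted p = 0.000615; 0.601 with DESeq2) and in primary polyps (0.00122; 1 without the second NveAGO1 library and 0.071 without the second NveAGO2 library) it was called as well. The new-miR-76 star of adult males had 2 and 1 counts beside 54 and 68 in NveAGO1, against 24 and 21 beside 21 and 28 in NveAGO2 (adjusted p = 5.57e-07; 0.718 with DESeq2). The new-miR-102-1 star had 0 and 0 beside 81 and 124 in NveAGO1, against 5 and 3 beside 20 and 32 in NveAGO2 (adjusted p = 0.000452), under every alternative. The new-miR-32 star in adult males had 31 and 51 beside 367 and 370 in NveAGO1, against 90 and 120 beside 77 and 250 in NveAGO2 (-2.76 ± 0.78, adjusted p = 0.00178), lost without the first NveAGO2 library (0.074) and with DESeq2 (0.0592). Without that library 6 new miRNAs in all were called in adult males in place of 14.

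**Figure D3:**
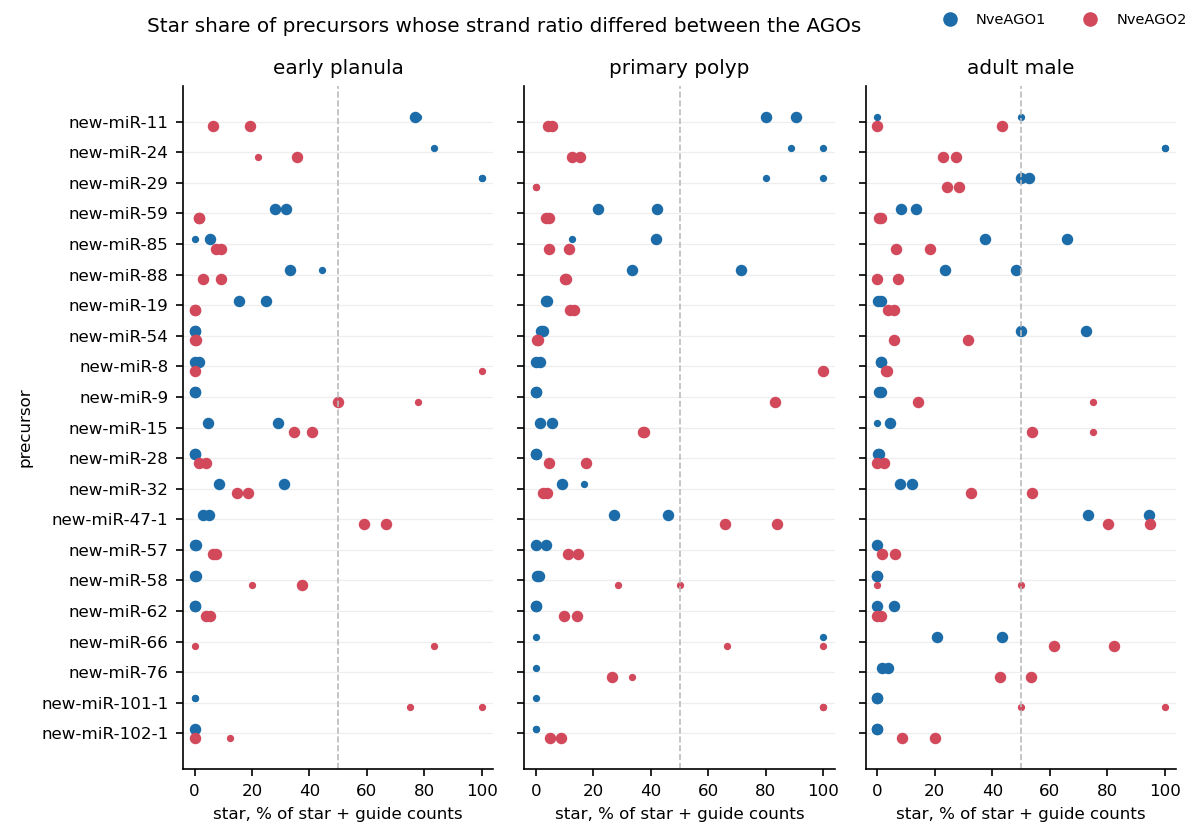
Star counts as a percentage of star plus guide counts of 1 precursor in each NveAGO1 and NveAGO2 library (large points, at least 10 counts; small points, fewer) at 3 stages, for the 21 precursors named from the strand tests. The new-miR-59 points of NveAGO1 lie right of those of NveAGO2 at each stage, and those of new-miR-9 lie left of them.

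The split of each strand between the AGOs was described for precursors with at least 20 star and 20 guide counts over both AGOs of a stage. In early planulae both strands of 13 of 18 precursors had most of their CPM in NveAGO2 and both strands of 2 in NveAGO1. In primary polyps this was 23 and 2 of 31, and in adult males 11 and 4 of 21. The strands fell on different sides for 3, 6 and 6 precursors at the 3 stages. The star was the strand in NveAGO1 for new-miR-11 and new-miR-59 in early planulae, for these and new-miR-88 in primary polyps, and for new-miR-59, new-miR-68 and new-miR-91 in adult males. It was the strand in NveAGO2 for new-miR-47-1 in early planulae, for new-miR-28, new-miR-48-1 and new-miR-9 in primary polyps, and for new-miR-30, new-miR-32 and new-miR-76 in adult males. Some lay at the boundary, such as new-miR-11 in early planulae (51.0% of star CPM in NveAGO1) and new-miR-88 (50.3%).

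**Figure D4:**
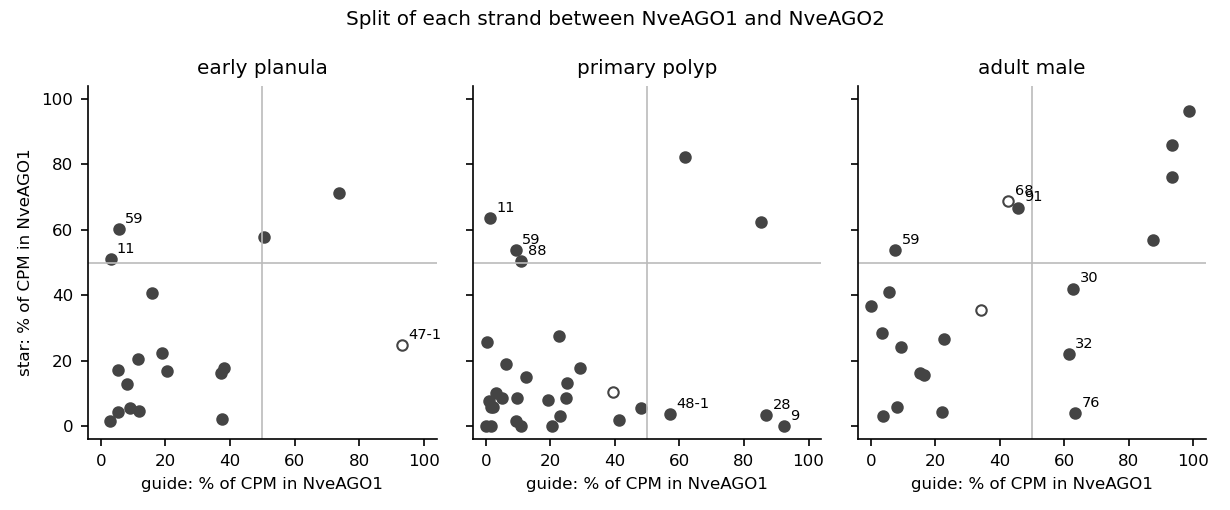
Percentage of the CPM of a star (vertical axis) and of its guide (horizontal axis) found in NveAGO1 rather than NveAGO2, 1 point for each precursor with at least 20 counts of each strand; open circles are near copies. New-miR-9 lies at 0% for the star and 92.4% for the guide in primary polyps, and new-miR-11 at 63.6% and 1.43%.

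Which stars exceeded their guide was counted with the 2 libraries of a group summed and at least 10 star counts. There were 23 such cases, from 12 precursors, of which 10 were not near copies. NveAGO1 had 2 at EP, 4 at PP and 6 at AM, and NveAGO2 had 3, 4 and 4. The near copies new-miR-47-1 and new-miR-68 made 10 of the 23, among them those with the most counts. The new-miR-68 star had nearly the counts of the new-miR-67 guide, and reads of the new-miR-47-1 star also fit the new-miR-46 guide, so that these excesses cannot be assigned to the stars.

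Among the rest whose share had an interval above 50%, the new-miR-66 star of adult males had the most counts. It had 158 and 69 counts beside 205 and 265 of the guide in NveAGO1, against 42 and 64 beside 9 and 40 in NveAGO2, where its share was 68.4% (interval 60.7 to 75.2). The ratio differed by -2.45 ± 0.77 (adjusted p = 0.00504), and the call was lost with DESeq2 (0.643), without the second NveAGO1 library (0.139) and without the first NveAGO2 library (0.107). The new-miR-11 star made 77.3% (56.6 to 89.9) of the precursor's counts in NveAGO1 of early planulae and 87.1% (71.1 to 94.9) in primary polyps. The new-miR-9 star made 83.3% (68.1 to 92.1) in NveAGO2 of primary polyps and 63.2% (41.0 to 80.9) in early planulae, where 1 of the libraries had as many guide as star counts.

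The new-miR-24 star made 90.9% (62.3 to 98.4) in NveAGO1 of primary polyps and all 10 counts in adult males. The new-miR-8 star made all 15 counts in NveAGO2 of primary polyps, although its guide had 22 and 71 counts in NveAGO1 there. In the other cases, as for new-miR-9 in early planulae, the interval of the share included 50%. These were new-miR-88 in NveAGO1 of primary polyps (53.8%), new-miR-29 (52.0%), new-miR-54 (59.3%) and new-miR-85 (53.7%) in NveAGO1 of adult males, and new-miR-15 in NveAGO2 of adult males (58.8%).

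**Figure D5:**
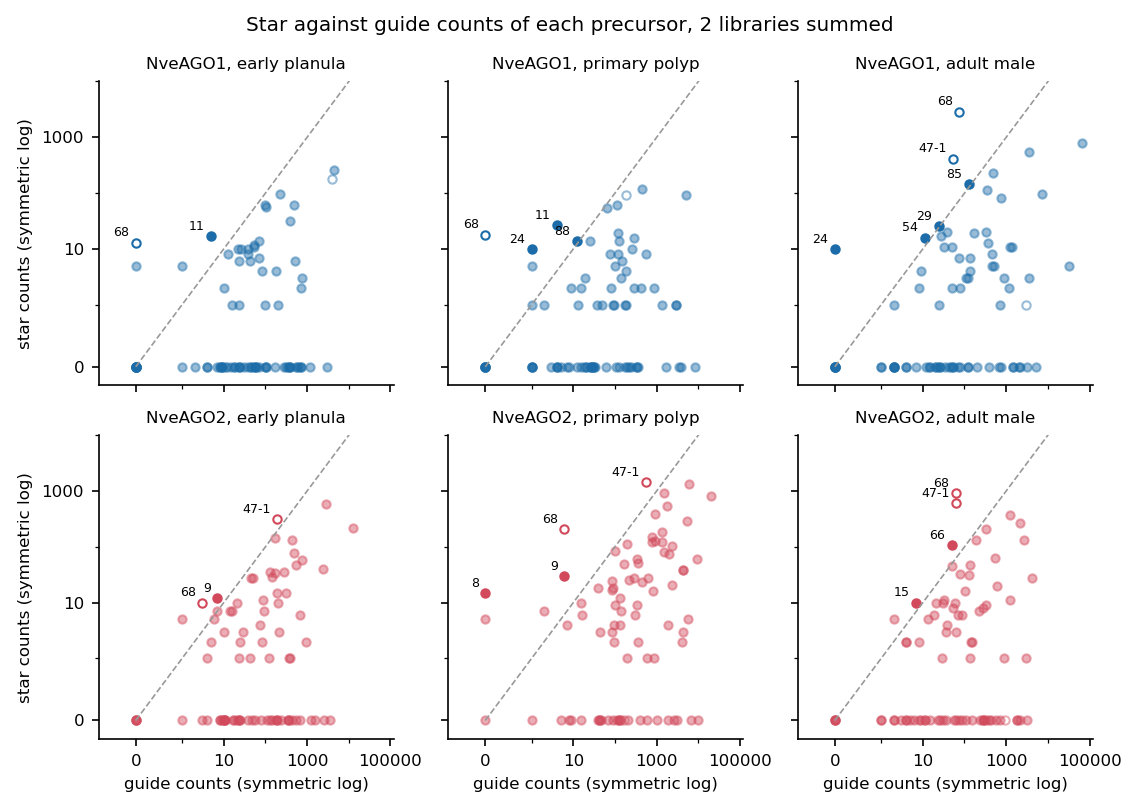
Star against guide counts of the 85 precursors, the 2 libraries of a group summed, on symmetric logarithmic axes for each AGO and stage; the dashed line marks equal counts, numbers name the stars above it with at least 10 counts, and open circles are near copies. In NveAGO1 of adult males the new-miR-68 star lies at 2883 counts beside 74 of its guide.

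Star:guide ratios were also compared between successive stages within each AGO. Within NveAGO1, 1 new miRNA was called between primary polyps and early planulae (of all tested 7.32% were called) and 3 between adult males and primary polyps (15.9%). Within NveAGO2, 4 were called between primary polyps and early planulae (8.54%) and 12 between adult males and primary polyps (25.6%). The calls that held under every alternative were new-miR-8 and new-miR-32, both between adult males and primary polyps in NveAGO2. The new-miR-32 star had 90 and 120 beside 77 and 250 guide counts in adult males, against 16 and 57 beside 595 and 1431 in primary polyps (4.46 ± 0.80, adjusted p = 1.62e-06). The new-miR-8 star had 9 and 11 beside 270 and 338 in adult males, against 2 and 13 with no guide count in primary polyps (adjusted p = 2.18e-08).

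The star:guide ratio of new-miR-54 was called between adult males and primary polyps in both AGOs. In NveAGO2 the star had 5 and 11 beside 80 and 24 guide counts in adult males, against 8 and 53 beside 2295 and 6922 in primary polyps (4.99 ± 0.98, adjusted p = 7.51e-06; 0.065 without the second adult male library). In NveAGO1 the star had 8 and 8 beside 8 and 3, against 1 and 2 beside 59 and 81 (adjusted p = 8.18e-05; 0.0693 without the second primary polyp library). In both AGOs the guide had far fewer counts in adult males. The new-miR-91 star went the other way in NveAGO2, with 1 and 7 beside 84 and 191 in adult males against 21 and 28 beside 53 and 108 in primary polyps (-3.50 ± 0.92, adjusted p = 0.00154; 0.0584 without the first primary polyp library and 0.0634 with DESeq2). The new-miR-49 ratio was lower in adult males (-3.01 ± 0.86, adjusted p = 0.00441), but not without the first primary polyp library (0.0535) or the second adult male library (0.115). The new-miR-89 ratio in NveAGO1 (3.70 ± 1.04, adjusted p = 0.00389) was lost without the second primary polyp library (0.0864) or the first adult male library (0.0687), and new-miR-96 was called in NveAGO2 on 3 star counts in each stage (0.00778; 0.0619 and 0.0737 without 1 adult male library). The near copy new-miR-47-1 was called in NveAGO1 in both steps (3.73 ± 0.81 and 3.59 ± 0.85) and lost without 1 library (up to 0.163). Each call of the step between primary polyps and early planulae in NveAGO2 was lost without at least 1 library. These were new-miR-19 (adjusted p = 0.0116; up to 0.214), new-miR-8 (0.0131; up to 1), new-miR-63 (0.0203; up to 0.600) and new-miR-32 (-2.60 ± 0.86, 0.0302; up to 0.350). Without 1 library these 4 calls became 0 or 1, and the 12 between adult males and primary polyps became 4 to 7. In NveAGO1 the 3 between adult males and primary polyps became 0 without the second primary polyp library, and the 1 between primary polyps and early planulae became 0 without the first primary polyp library and 2 without the second early planula library.

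Sequence features that the selection did not use were compared between strands. The stars were 18 to 26 bases long with a median of 22, and the guides 19 to 25 with the same median. A U at the 5' end was found in 25 of 85 stars (29.4%) and 51 of 85 guides (60.0%), an A in 31 stars (36.5%) and 25 guides (29.4%), and a C in 20 stars (23.5%) and 8 guides (9.41%). The star lay on the 5' arm of the precursor in 46 and on the 3' arm in 39 cases. Of the 18 stars with no count, 12 lay on the 5' arm, and of the 67 with counts, 34. In these 67 precursors a U began 31.3% of the stars and 61.2% of the guides. Whether the 18 are the miRNAs that the study classed as having no star was not tested. A seed was shared with another arm of the table by 4 stars, new-miR-47-1 with the new-miR-46 guide, new-miR-67 with the new-miR-68 guide, and new-miR-48-1 with new-miR-48-2. No new star had the seed of a known miRNA of the table.

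The first base of the star reads varied with AGO and stage, here without the near copies. In adult males stars that begin with A made 61.0% and 71.7% of the star counts in NveAGO1, against 33.3% and 40.0% in NveAGO2, and the new-miR-8 and new-miR-6 stars, which begin with A, were the highest in NveAGO1. In early planulae stars that begin with C made 25.2% and 23.5% in NveAGO1, against 41.2% and 53.1% in NveAGO2, where the new-miR-55 star, which begins with C, had 587 of the 1631 star counts. These shares are weighted by counts, so that a few stars weigh most.

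The KD libraries were shallow for stars, with 23099 to 70321 miRNA counts each. KD counts are given raw, and the libraries differ in scale. The mean count of the 4 spike-ins was 21702.5, 46420.5 and 46692 in AGO1 KD against 89122.8, 72230.2 and 77550.5 in Control1. It was 56779.8, 43751.5 and 71714.5 in AGO2 KD against 33698.8, 65975 and 74165.2 in Control2. The small RNAs do not measure the targeted AGO mRNAs. The 85 stars had 205 counts over all 12 libraries, 40 stars having at least 1 count and 6 at least 10. By replicate number, which pairs KD and control, the star share of the new precursors was 1.90%, 3.32% and 3.35% in AGO1 KD against 3.08%, 5.47% and 7.07% in Control1. It was 1.18%, 2.22% and 2.30% in AGO2 KD against 3.67%, 5.52% and 3.05% in Control2. The share was lower in the KD in 3 of 3 pairs for each MO, and 3 pairs cannot give an exact two-sided p below 0.25. These shares depended in part on 1 guide, singled out after its values were seen. The new-miR-38 guide, whose star had no count, had 153, 322 and 362 counts in AGO1 KD against 216, 49 and 59 in Control1, and 449, 146 and 531 in AGO2 KD against 42, 28 and 94 in Control2. Without new-miR-38 the share was 3.70%, 6.75% and 6.28% in AGO1 KD against 4.61%, 6.23% and 8.41% in Control1, and 2.87%, 3.04% and 6.42% in AGO2 KD against 4.21%, 6.01% and 3.92% in Control2. The libraries of KD and control then overlapped for both MOs, with the share lower in the KD in 2 of 3 pairs each. No new star reached 10 counts in 3 libraries, so none could be tested for its level (of all arms tested 52.5% were called in AGO1 KD and 29.5% in AGO2 KD).

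The star:guide ratio could be tested for 6 new miRNAs in the KDs. This test did not pair KD and control by number, and no paired fit of the ratio was run. In AGO1 KD 1 was called (of all tested 36.7%), and in AGO2 KD 0 (26.7%) by edgeR, with 0 at an unadjusted p under 0.05 and 0 by DESeq2. The called one was new-miR-59, whose star had the most counts of all. It had 0, 0 and 0 counts in AGO1 KD against 2, 4 and 5 in Control1, while its guide had 8, 22 and 11 against 22, 25 and 27 (adjusted p = 0.0147). These and the KD counts that follow are not scaled to the spike-ins. The call was kept with DESeq2 (adjusted p = 0.0378) but lost without AGO1 KD replicate 2 (0.121) or 3 (0.0551) or Control1 replicate 3 (0.052), and without the filter on low counts (0.0559). In AGO2 KD the new-miR-59 star had 3, 4 and 1 counts, against 2, 3 and 1 in Control2. The new-miR-83 star had 3, 2 and 5 counts in AGO1 KD against 2, 1 and 0 in Control1, and 0, 1 and 0 in AGO2 KD against 1, 1 and 2 in Control2. The new-miR-55 star had 0, 2 and 2 in AGO1 KD against 2, 5 and 2 in Control1, and 1, 0 and 0 in AGO2 KD against 1, 2 and 2 in Control2. The new-miR-16 star had 1, 2 and 5 in AGO1 KD against 2, 0 and 2 in Control1, and the new-miR-26 star 0, 2 and 3 against 1, 2 and 4. Without the filter on low counts, the level of 1 new star, new-miR-83, was called in AGO1 KD.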

How the data were processed

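Both deposited tables list, for every miRNA arm, the raw count of reads. For these the authors cut adapters with cutadapt, in a version the sources do not give, and counted reads with the quantifier of mirDeep2, with default settings for IPs and without mismatches for KDs. The deposited KD columns also carry a line of spike-in means, which is another kind of value and was left out. Star and guide of new miRNAs were taken from the table, those of known miRNAs from the names in the study's supplement, as were the genome-mapped reads used as library sizes in the IPs. The mean of the 4 spike-ins scaled the KDs.

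Counts were tested with edgeR 4.0.16 (quasi-likelihood F test, Benjamini-Hochberg adjustment over all arms or miRNAs tested, adjusted p under 0.05) in R 4.3.3, all 18 IP or 12 KD libraries in 1 fit. Arms needed at least 10 counts in at least 2 (IP) or 3 (KD) libraries. The star:guide ratio was fitted with the library as block and a star term per group. SE is the log2 difference divided by the root of F. No fold is given where a compared count sum is 3 or less. DESeq2 1.42.0, other scales, no filter, a replicate block and leaving out each library were the alternatives for levels. For ratios they were DESeq2, no filter and leaving out each library, and no replicate block was fitted. The fits were tested on simulated data. Shares, near copies (at most 2 mismatches at a shift of at most 2 bases) and figures come from Python 3.11.15 with numpy 2.4.6, scipy 1.17.1, pandas 2.3.3 and matplotlib 3.10.9. The new-miR-48-1 and new-miR-48-2 stars also meet this rule, but they were not classed as near copies and stay in the sums without them. The sequences are those of the deposited table.

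KD and control of 1 number were injected on the same day per the study's methods and so form pairs; the deviations of such pairs from their group means correlated at -0.288 to 0.286 over 61 arms. The study's methods do not say whether IP libraries of 1 number share material, and the main fits did not pair them. Deviations of same-numbered NveAGO1 and NveAGO2 libraries correlated at -0.19, 0.24 and 0.58 at EP, PP and AM. Whether material was shared was not tested. P-values measure the spread between the 2 or 3 libraries of a group, pooled over all groups of a fit. A comparison of the AGOs at 1 stage thus also uses the spread at the other stages and in IgG.

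Members, lists and the rule for named stars were chosen with earlier results of these data known. Named were the 8 stars with the highest mean CPM in an AGO, every star above its guide with at least 10 counts, up to 6 calls with the smallest p per direction in each test between the AGOs, up to 3 in each test between stages, and in the KDs the 5 with the most counts and any call. The near copies were defined after the data were seen. Stars named in the tests against IgG, the new-miR-6 ratio, the new-miR-48 pair and the strands named only for their AGO split were chosen after their values were seen.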

Additional observations from a re-analysis of the deposited data

Results flagged for a closer look

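The difference in star:guide ratio between NveAGO1 and NveAGO2 was itself tested for a difference between the stages in 1 fit (82 miRNAs, 51 of them new). It was called for 11 miRNAs, 4 of them new. For new-miR-8 (adjusted p = 0.000656) the ratio was lower in NveAGO1 in primary polyps, on 1 star count in NveAGO1 and 15 in NveAGO2, and the difference was -1.49 (log2) in adult males, where the counts were highest. For new-miR-19 (adjusted p = 0.000993) the ratio was higher in NveAGO1 of early planulae, on 6 star counts against 0 in NveAGO2, and lower by -1.76 in primary polyps and -2.56 in adult males. For the near copy new-miR-47-1 (adjusted p = 0.00118) the difference was -5.34, -2.50 and -0.37 at EP, PP and AM. For new-miR-62 (adjusted p = 0.0275) the ratio was lower in NveAGO1 of early planulae and primary polyps, with 0 star counts in NveAGO1 at both, and in adult males 4 star counts were left in NveAGO1 and 1 in NveAGO2. The part of shared reads, of depth or of a single library in these differences was not tested.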

How the results depend on the processing

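Counts of new stars called are given in the order EP, PP, AM. For star level between the AGOs (7, 22 and 8), summed miRNA counts as scale gave 15 in adult males, TMM gave 10 in primary polyps, and DESeq2 gave 12 in primary polyps and 5 in adult males. Above IgG, summed counts gave 0 in all 6 comparisons, a scale that takes out the general excess of miRNA counts over IgG. TMM gave 2 for NveAGO1 at EP, 6 at AM, and 1, 0 and 3 for NveAGO2. DESeq2 gave 9 for NveAGO1 at AM, and 11, 10 and 12 for NveAGO2. For the star:guide ratio between the AGOs (11, 17 and 14) DESeq2 gave 7, 9 and 7. For stages in NveAGO2, the 4 calls of PP over EP became 1 with DESeq2 and 2 without the filter, and the 12 of AM over PP became 4 with DESeq2 and 7 without the filter. The single call of PP over EP in NveAGO1 became 0 without the near copies. Without the filter, AGO1 KD gave 1 star level call (new-miR-83) in place of 0 and 0 ratio calls in place of 1. The causes were not tested, except that omitting near copies removes stars by construction.

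Leaving out 1 library gave 3 to 10, 10 to 11 and 3 to 8 calls of level between the AGOs. Against IgG it gave 1 to 3, 0 to 2 and 8 to 12 in NveAGO1 and 10 to 17, 0 to 18 and 11 to 16 in NveAGO2. For the ratio between the AGOs it gave 9 to 11, 12 to 17 and 6 to 13. For stages it gave 0 to 2 (PP over EP) and 0 to 3 (AM over PP) in NveAGO1, and 0 to 1 and 4 to 7 in NveAGO2. For the ratio in AGO1 KD it gave 0 to 1. The level difference of the new-miR-11 star at AM ranged over -5.83 to 2.18, its direction turning without NveAGO2 replicate 1.

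With the replicate block, level between the AGOs gave 6, 22 and 7 calls, NveAGO1 above IgG 3, 1 and 13, and NveAGO2 above IgG 14, 14 and 20. In the KDs, where numbers pair the libraries, no new star passed the filter for a test of level, so the block says nothing there. The deviations of same-numbered NveAGO1 and NveAGO2 libraries from their group means correlated at -0.19, 0.24 and 0.58 at EP, PP and AM over 196 arms. With 2 libraries a group the deviations mirror each other, so each stage gives 1 value.

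For the star share, the median over precursors was 0% (EP), 0.464% (PP) and 0.775% (AM) in NveAGO1 and 1.14%, 3.37% and 1.37% in NveAGO2, in place of summed shares of 3.72%, 1.68% and 3.72% and of 4.85%, 6.18% and 8.58%. Without near copies the summed share was 1.40% (PP) and 1.58% (AM) in NveAGO1 and 4.95% and 4.82% in NveAGO2. Stars above their guide at EP numbered 4 in NveAGO1 with at least 5 counts, 0 with at least 20, and 1 without near copies. In NveAGO2 they numbered 1 with at least 20 counts and 1 without near copies. At PP they numbered 1 in NveAGO1 with at least 20 counts and 2 in NveAGO2 without near copies. At AM they numbered 3 in NveAGO1 when both libraries were asked for and 2 in NveAGO2 without near copies. Without new-miR-38 the mean star share was 5.58% in AGO1 KD, in place of 2.86%, and 4.11% in AGO2 KD, in place of 1.90%. New-miR-38 and the near copies were left out after the data were seen. Depth limits most stars: 3 counts are 0.915 CPM in the smallest AGO library, and no star level could be tested in the KDs.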
